A study of Homo sapiens with 8 samples.

Results

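Kinesins are motor proteins that use ATP to move along microtubules, or to shorten their ends. One class builds and moves the mitotic spindle, aligns chromosomes and drives cytokinesis, and its genes are transcribed mainly in dividing cells around G2 and mitosis. Another class carries vesicles, organelles and other cargo from the cell interior toward the periphery in cells of every kind, with neurons making the widest use of it.

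The kinesin genes were taken as all genes whose symbol is KIF followed by a digit. There were 31 such genes among the 12067 genes with a splicing event in the deposited tables. Of these, 12 belonged to a list of mitotic kinesins, 11 to a list of transport kinesins and 8 to neither (KIF7, KIF9, KIF12, KIF19, KIF21A, KIF21B, KIF24 and KIF27). The mitotic list held 14 genes and the transport list 13. KIF2B, KIF4B, KIF3B and KIF5A had no event in any table and therefore no value by library.

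The RNA came from U2OS, a human osteosarcoma cell line, transfected for 48 h with siRNA at 20 nM. The control cells received an siRNA against EGFP, a gene that U2OS cells do not carry, and the CHERP-depleted cells received the siRNA named CHERP #2 against CHERP, a protein of the endoplasmic reticulum and nucleus that associates with the U2 snRNP of the spliceosome. Both siRNAs were examined in whole cell RNA and in cytoplasmic RNA, the supernatant of cells lysed in NP-40, with 2 biological replicates a group and 8 libraries in all. A single siRNA sequence stood for CHERP depletion and a single line for the cells, so an effect of the sequence on other transcripts cannot be told apart from that of CHERP.

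Summed over splicing events, the 4 whole cell libraries held 29409956 to 35664568 reads and the 4 cytoplasmic libraries 5370756 to 6580099. These sums, and the read numbers of genes, count a read once in every event that shares it. CHERP itself had 103 and 77 reads with the EGFP siRNA and 3 and 10 with the CHERP siRNA in whole cells (limma log2 fold change -3.46, adjusted p = 0.0215), and 31 and 21 against 3 and 4 in the cytoplasm. Of the mesenchymal markers of such cells, VIM and FN1 had at least 687 reads in every library, COL5A1 had 26 to 144, and COL1A1, COL1A2 and SPARC had no event. Of the markers of other cell types, KRT8 had 445 to 19315 reads and CDH1 had 1 or 2 with the EGFP siRNA and 8 to 22 with the CHERP siRNA. RUNX2 had 16 and 18 reads with the EGFP siRNA against 0 and 3 with the CHERP siRNA in whole cells, and 16 and 20 against 3 and 6 in the cytoplasm, under the read minimum of the test. COL5A1 rose in whole cells (limma log2 fold change 1.26, adjusted p = 0.0119) and KRT8 fell in the cytoplasm (-0.53, limma adjusted p = 0.0262), and the part of these shifts in the kinesin values was not tested. EPCAM, PTPRC, PECAM1, GFAP and ALB had no event.

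Exons and promoters of some kinesin genes are shown first. Among all kinesin splicing events, 2 passed the test, and both were skipped exons of transport kinesins in whole cells. They were 2 of 205 kinesin skipped exon events there, against 0.663% of the 63977 events of all genes. KIF3A is a motor subunit of heterotrimeric kinesin-2, which moves cargo along the cilium and in the cytoplasm. Its exon is 9 nt long, lies at chr5:132042143-132042151 on the minus strand of hg19, and is exon 11 of 19 of the canonical transcript. KIF13A is a kinesin-3 motor of endosomes, and its 39-nt exon, exon 26 of 39, lies at chr6:17790103-17790141 on the minus strand. GENCODE lists the KIF3A exon in 3 of 6 protein-coding transcripts and the KIF13A exon in 4 of 9, as coding sequence throughout. Both lengths are multiples of 3. Exons of the tables were a multiple of 3 nt long in 50.9% of the 55 skipped exons of transport kinesins, 44.3% of the 88 of mitotic kinesins and 40.5% of the 48505 of all genes in whole cells. Other short exons of the family are set beside them, the 27-nt KIF1A exon (chr2:241674136-241674162, minus strand) and the 42-nt KIF23 exon (chr15:69717621-69717662, plus strand), which did not pass the test. The lines give 60 bases of the intron before each exon and 20 bases of the intron after it in lower case, read 5′ to 3′ on the transcribed strand of GRCh37, with the exon in capitals.
KIF3A: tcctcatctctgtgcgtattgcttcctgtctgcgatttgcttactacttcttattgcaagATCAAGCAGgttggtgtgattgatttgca
KIF13A: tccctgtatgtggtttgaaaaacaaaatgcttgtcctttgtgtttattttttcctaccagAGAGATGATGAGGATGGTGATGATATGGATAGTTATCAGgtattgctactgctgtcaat
KIF1A: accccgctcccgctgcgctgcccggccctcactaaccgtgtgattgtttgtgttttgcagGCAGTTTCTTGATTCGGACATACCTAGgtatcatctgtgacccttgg
KIF23: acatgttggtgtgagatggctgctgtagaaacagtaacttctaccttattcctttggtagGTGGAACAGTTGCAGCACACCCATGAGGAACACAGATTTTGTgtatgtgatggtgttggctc
All 4 exons lie between AG and GT. In the 20 bases before the AG, the KIF3A exon has 14 pyrimidines, KIF13A 16, KIF1A 13 and KIF23 16.

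Mitotic kinesin promoters are known for the CCAAT box, which is bound by the activator NF-Y, and for the cell cycle genes homology region (CHR), through which cell cycle genes are repressed outside G2 and mitosis. In the 250 bases before the start site, CHR letters (TTTGAA or TTCGAA, either strand) were found in 6 of the 12 mitotic kinesins, 1 of the 10 transport kinesins with a promoter entry and 0 of 5 others. They were found in 9.64% of the 8371 matched genes with an event in whole cells and in 14.6% of all 27305 promoters. CCAAT, on either strand, was found in 9 of 12 mitotic kinesins, 2 of 10 transport kinesins and 34.9% of the genes with an event. Both were found in 5 of 12 mitotic kinesins (KIF4A, KIF11, KIF18A, KIF22 and KIF23), in the transport kinesin KIF5B and in 3.99% of the genes with an event, and no match overlapped another in these promoters. KIF2A, the mitotic kinesin that did not fall in abundance, had neither, and nor did KIF2C, which fell. The 100 bases before the start site of 4 mitotic kinesins that fell are given from RefSeq on GRCh38.p14, 5′ to 3′ on the strand of the gene, with the matches in capitals. They show a promoter with both motifs in 2 cases, with CCAAT alone and with neither. The windows are chrX:70290004-70290103 (plus strand) for KIF4A, chr11:28108157-28108256 (minus strand) for KIF18A, chr5:138179012-138179111 (plus strand) for KIF20A and chr1:44739737-44739836 (plus strand) for KIF2C.
KIF4A: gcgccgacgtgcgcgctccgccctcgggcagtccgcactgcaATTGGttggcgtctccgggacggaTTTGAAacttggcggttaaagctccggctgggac
KIF18A: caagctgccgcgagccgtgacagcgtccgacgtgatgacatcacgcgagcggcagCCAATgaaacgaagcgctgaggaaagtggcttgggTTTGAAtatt
KIF20A: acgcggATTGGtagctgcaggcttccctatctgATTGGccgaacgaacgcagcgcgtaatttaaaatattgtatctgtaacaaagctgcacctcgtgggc
KIF2C: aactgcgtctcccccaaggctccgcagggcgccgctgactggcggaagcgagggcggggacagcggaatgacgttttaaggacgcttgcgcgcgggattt
These matches describe the letters of the windows alone.

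To see how CHERP depletion moved the abundance of the motors, the reads of a gene on its skipped exon, alternative 5′ splice site and alternative 3′ splice site events were divided by the effective length of each form, summed and scaled between libraries. This abundance compares libraries of 1 fraction for 1 gene. In whole cells, 11 of the 12 mitotic kinesins fell after CHERP depletion, by 0.89 to 2.17 on the log2 scale, and 0 rose. Of the 11 transport kinesins, 2 rose and 0 fell. Of all 27 kinesins that averaged 20 or more reads a library, 11 were lower and 3 higher at a limma adjusted p under 0.05, against 13.7% of the 9660 genes tested that were lower and 13.3% that were higher. The median log2 fold change was -1.20 over the mitotic kinesins and 0.32 over the transport kinesins, beside 0.01 over all genes tested. Both CHERP siRNA libraries lay below both EGFP siRNA libraries for 11 of 12 mitotic and 1 of 11 transport kinesins, a pattern that 35.1% of all genes tested showed. In bulk RNA, fewer cells that express a gene and less of its RNA in each cell cannot be told apart.

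**Figure D1:**
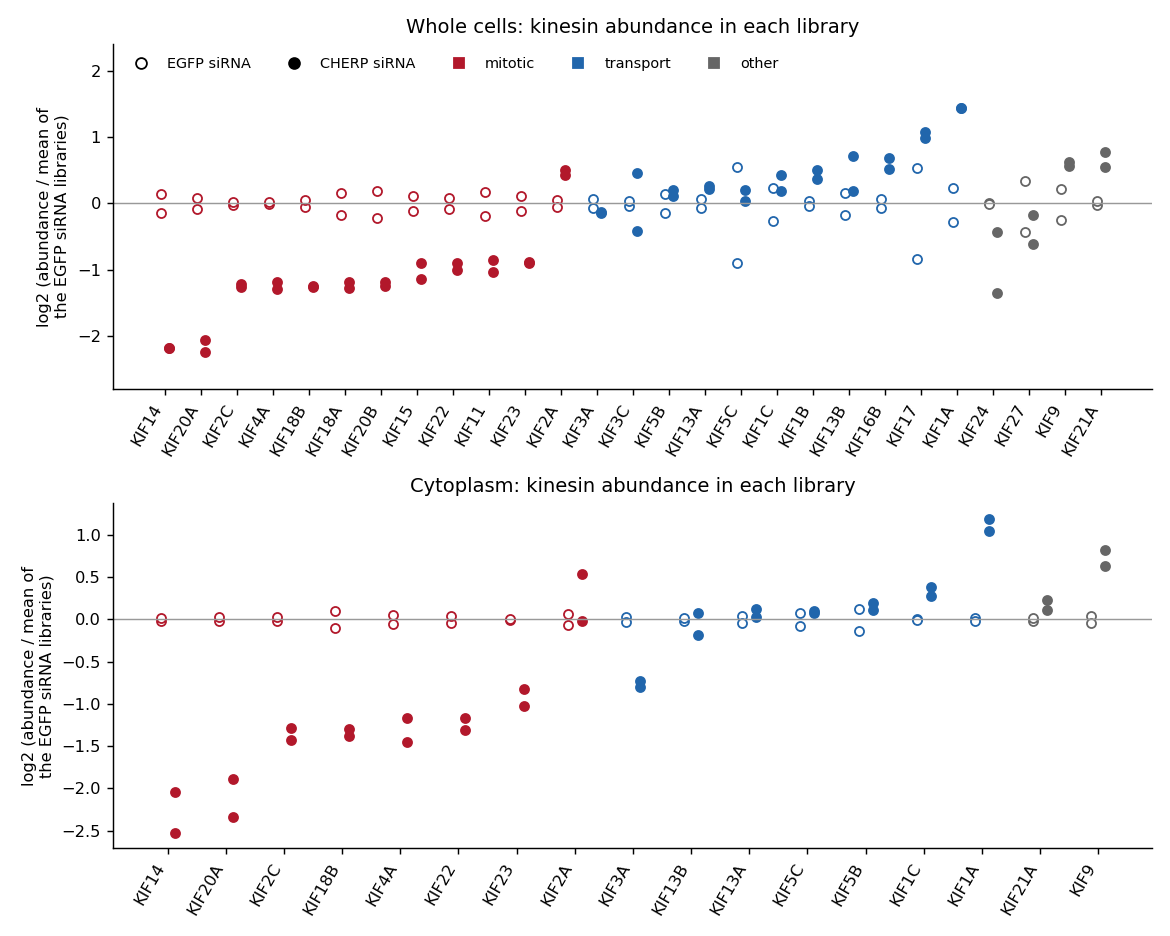
Abundance of every tested kinesin in each library, as the log2 ratio to the mean of the EGFP siRNA libraries (vertical axis), in whole cells (27 genes) and in the cytoplasm (17 genes). Open points are EGFP siRNA libraries and filled points CHERP siRNA libraries, 2 of each per gene, and the mitotic kinesins other than KIF2A have both filled points well below 0 in both panels.

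KIF14 and KIF20A fell the most. KIF14, a motor of the central spindle and midbody, had an abundance of 5.12 and 6.24 in the EGFP siRNA libraries and 1.26 and 1.25 in the CHERP siRNA libraries of whole cells (log2 fold change -2.17 ± 0.15 SE, limma adjusted p = 0.00794). KIF20A, which carries the chromosomal passenger complex to the spindle midzone, had 6.07 and 6.79 against 1.37 and 1.55 (log2 fold change -2.14 ± 0.14, limma adjusted p = 0.00794). The groups were far apart for both genes, with levels 4.49-fold and 4.39-fold lower after CHERP depletion. KIF23, a subunit of centralspindlin and the partner of RACGAP1 at the midzone, had 61.9 and 72.8 against 36.0 and 36.6 (log2 fold change -0.89 ± 0.14, limma adjusted p = 0.0180). KIF20B, which acts late in cytokinesis, had 3.64 and 4.81 against 1.78 and 1.86 (log2 fold change -1.20 ± 0.18, limma adjusted p = 0.0157). All 4 cytokinesis motors separated by group without overlap, as 35.1% of all genes tested in whole cells did in the downward direction. KIF23 had the smallest fall of the 11 mitotic kinesins that fell.

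The motors of the spindle body and the chromosome arms fell together with them. KIF11, which slides antiparallel microtubules apart to make the spindle bipolar, had 8.42 and 10.9 with the EGFP siRNA and 4.73 and 5.34 with the CHERP siRNA (log2 fold change -0.93 ± 0.18, limma adjusted p = 0.0263). KIF15, which can take over from KIF11, had 5.63 and 6.55 against 3.28 and 2.75 (-1.01 ± 0.16 log2, limma adjusted p = 0.0178). These falls were 1.90-fold and 2.02-fold. The chromokinesins bind chromosome arms. KIF4A, which also sets the length of the midzone with PRC1, had 11.3 and 11.6 against 5.05 and 4.68 (-1.24 ± 0.13 log2, limma adjusted p = 0.00869). KIF22 had 4.37 and 4.88 against 2.31 and 2.48 (-0.95 ± 0.14 log2, limma adjusted p = 0.0145). KIF4B, a near-identical retrocopy of KIF4A, had no event, so any of its reads placed on KIF4A would be counted there.

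The kinesins that shorten or cap microtubule ends divided. KIF18A, which damps chromosome movement at metaphase, had 4.21 and 5.27 with the EGFP siRNA against 1.97 and 2.09 with the CHERP siRNA (-1.21 ± 0.16 log2, limma adjusted p = 0.0130). KIF18B had 0.585 and 0.631 against 0.253 and 0.256 (-1.22 ± 0.13 log2, limma adjusted p = 0.00869), from a mean of only 72.2 reads a library. KIF2C, the depolymerase that corrects wrong kinetochore attachments, had 41.0 and 42.1 against 17.3 and 17.8 (-1.24 ± 0.12 log2, limma adjusted p = 0.00844). These 3 end-binding motors fell 2.32-fold to 2.36-fold, with no overlap of the libraries, a downward pattern that 35.1% of all genes tested showed. KIF2A, a relative of KIF2C that works at spindle poles and also in neurons, had 5.82 and 5.37 against 7.53 and 7.95 (0.47 ± 0.13 log2, limma adjusted p = 0.0581). It was the 1 mitotic kinesin whose CHERP siRNA libraries lay above the EGFP siRNA libraries, a pattern that 35.1% of all genes tested showed. Its difference did not pass with the main settings. Among the alternatives, it passed with a pseudocount of 0.1, with a read minimum of 100 and with a trended limma fit.

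Fewer kinesins were called in whole cells when either CHERP siRNA library was left out. The spread within groups was then measured from the EGFP siRNA pair alone. In whole cells that pair differed more between its libraries (chi-square per degree of freedom over genes 26.27) than the CHERP siRNA pair did (7.285). The part of this difference in the lost calls was not tested. Without the first CHERP siRNA library 2 kinesins were still called lower, KIF14 and KIF20A, and without the second the count was also 2. The other 9 kept their direction and lay between -0.83 and -1.29 on the log2 scale, with limma adjusted p from 0.0514 to 0.137. All genes called dropped from 2611 to 469 and 530 in the same fits. Without either EGFP siRNA library 11 kinesins were called lower.

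Among the transport kinesins of whole cells, KIF1A and KIF16B rose. KIF1A, the kinesin-3 of synaptic vesicle precursors and dense core vesicles, had an abundance of 0.633 and 0.445 with the EGFP siRNA and 1.458 and 1.462 with the CHERP siRNA (log2 fold change 1.44 ± 0.20, limma adjusted p = 0.0142), a 2.72-fold rise. KIF16B, a kinesin-3 of early endosomes, had 0.812 and 0.735 against 1.24 and 1.10 (0.59 ± 0.14 log2, limma adjusted p = 0.0414). Both separated without overlap, as 35.1% of all genes tested in whole cells did in the upward direction. The KIF16B call was lost without any 1 of the 4 libraries (log2 fold change 0.51 to 0.68, limma adjusted p 0.0506 to 0.258), and the KIF1A call without either CHERP siRNA library (1.45 and 1.45, limma adjusted p = 0.0637 in both). The kinesin-2 motor KIF3A had 2.51 and 2.79 against 2.39 and 2.41 (-0.14 ± 0.13 log2, limma adjusted p = 0.456). The other 8 transport kinesins lay between 0.02 (KIF3C) and 1.09 (KIF17) on the log2 scale and did not pass, KIF17 with libraries at 0.146 and 0.0568 against 0.214 and 0.1996. Without the first EGFP siRNA library, KIF17 (1.69, limma adjusted p = 0.0203) and KIF5C (0.94, limma adjusted p = 0.0291) passed.

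Of the kinesins on neither list, KIF21A rose in whole cells. KIF21A, which restrains microtubule growth at the cell cortex, had 4.66 and 4.86 against 6.95 and 8.10 (0.66 ± 0.14 log2, limma adjusted p = 0.0336), and lost the call without any 1 library (0.55 to 0.77, limma adjusted p 0.0598 to 0.227). KIF9, a ciliary motor, had 0.61 ± 0.20 (0.85 without the second EGFP siRNA library, limma adjusted p = 0.0329), KIF24, which acts at centrioles, -0.85 ± 0.31, and KIF27, a relative of the Hedgehog regulator KIF7, -0.34 ± 0.30, none of which passed with all libraries. KIF7, KIF12 and KIF21B were under the read minimum, with 0 to 25 reads a library, and KIF19 had no event in whole cells.

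To compare one motor with another, the median over the skipped exon events of a gene of reads per 1000 nt of effective length was used as its level per length. In the EGFP siRNA libraries of whole cells the highest levels per length were those of KIF23 (2439 and 3013), KIF5B (2324 and 2796), the heavy chain of conventional kinesin, and KIF2C (2533 and 2547), whose libraries overlapped in range. KIF20A followed (1588 and 1763), clear of its neighbours, then KIF4A (1028 and 1187), KIF11 (919.8 and 1094) and KIF2A (975.4 and 935.9), each overlapping the gene before it in range. In the CHERP siRNA libraries KIF5B led (2723 and 2792), above KIF23 (1580 and 1408), KIF2A (1348 and 1397) and KIF2C (1081 and 1097). KIF14 moved from 596.6 and 795.2 to 133.5 and 143.5, below KIF13A at 245.4 and 229.1. KIF18B had no skipped exon event in whole cells and has no level on this scale.

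**Figure D2:**
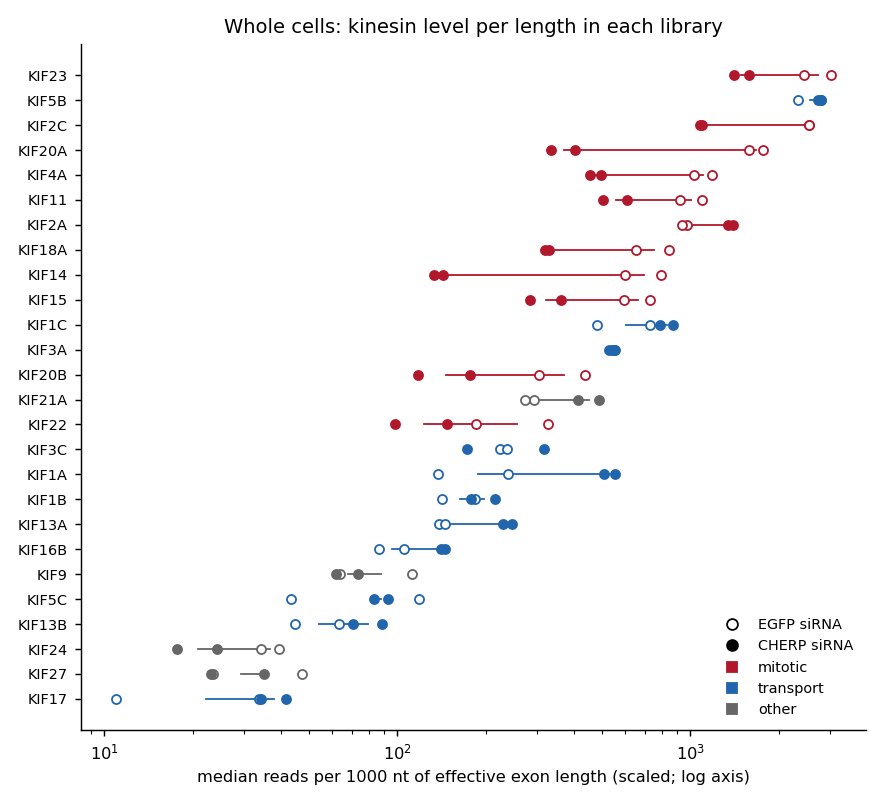
Level of each tested kinesin in whole cells as the median reads per 1000 nt of effective length over its skipped exon events (log axis), open points for the EGFP siRNA and filled points for the CHERP siRNA libraries, with a line joining the group means. KIF5B is at 2324 or more in every library while KIF23, KIF2C and KIF20A shift to the left.

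The cytoplasmic libraries were examined for the same motors. There, 7 of the 8 tested mitotic kinesins fell and 0 rose. Of the 17 kinesins tested, 8 were lower and 2 higher, against 19.9% of the 7293 genes tested that were lower and 19.1% that were higher. The median log2 fold change was -1.31 over the mitotic kinesins and 0.08 over the 7 tested transport kinesins, and -0.01 over all genes tested. A further 10 kinesins had reads but fell under the read minimum, among them KIF15 (30 and 30 reads against 8 and 9) and KIF20B (5 and 11 against 3 and 1). KIF11 had no event in the cytoplasmic tables, and the only KIF18A events there were mutually exclusive exons.

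KIF14 had a cytoplasmic abundance of 0.273 and 0.279 with the EGFP siRNA and 0.0479 and 0.0670 with the CHERP siRNA (log2 fold change -2.10 ± 0.17, limma adjusted p = 0.00419). KIF20A had 1.14 and 1.17 against 0.311 and 0.227 (-2.08 ± 0.18, limma adjusted p = 0.00419). These 2 genes had the lowest log2 fold changes of the tested kinesins in both fractions. KIF2C had 11.2 and 11.6 against 4.21 and 4.66 (-1.36 ± 0.11, limma adjusted p = 0.00419), and KIF18B had 1.53 and 1.33 against 0.550 and 0.582 (-1.32 ± 0.12, limma adjusted p = 0.00467). KIF4A had 1.502 and 1.62 against 0.573 and 0.692 (-1.30 ± 0.14, limma adjusted p = 0.00578). All 3 were clear of overlap, as were the chromokinesin KIF22 and the centralspindlin motor KIF23. In the cytoplasm 37.5% of all 7293 genes tested also had both CHERP siRNA libraries below both EGFP siRNA libraries. KIF22 had 4.57 and 4.87 against 1.91 and 2.11 (-1.23 ± 0.12, limma adjusted p = 0.00471), and KIF23 had 7.96 and 7.99 against 4.49 and 3.93 (-0.92 ± 0.12, limma adjusted p = 0.00821). KIF2A again stood apart, at 0.989 and 0.907 against 0.939 and 1.37, with overlapping groups (0.26 ± 0.21, limma adjusted p = 0.368).

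Among the cytoplasmic transport kinesins, KIF1A rose and KIF3A fell. KIF1A had 1.21 and 1.18 with the EGFP siRNA against 2.47 and 2.72 with the CHERP siRNA (log2 fold change 1.11 ± 0.11, limma adjusted p = 0.00502). KIF3A had 0.418 and 0.402 against 0.234 and 0.247 (-0.74 ± 0.11, limma adjusted p = 0.0101), from 28 to 48 reads a library. Neither gene's groups overlapped, a pattern that 37.6% of all genes tested there showed upward and 37.5% downward. KIF9, on neither list, had 0.685 and 0.646 against 1.03 and 1.17 (0.72 ± 0.12, limma adjusted p = 0.0142), and its call was lost without either EGFP siRNA library (0.75 and 0.67, limma adjusted p = 0.0528 and 0.0640). The 8 kinesins that fell in the cytoplasm were called under every alternative that tested them, each library left out included, while KIF14 and KIF3A had too few reads for the minimum of 100.

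The change in the cytoplasm was compared with the change in whole cells by an interaction in limma for the 17 kinesins tested in both. None passed the adjustment, nor did any of the 7059 genes (0%), while 5.51% of all genes and 2 kinesins, KIF3A and KIF21A, had an unadjusted p under 0.05. KIF3A fell more in the cytoplasm by a difference of -0.60 ± 0.15 on the log2 scale (limma unadjusted p = 0.00504, adjusted p = 0.615). KIF21A rose less there, by -0.49 ± 0.17 (limma unadjusted p = 0.0224, adjusted p = 0.762). The 7 mitotic kinesins that fell in both fractions differed between them by -0.28 to 0.07 on the log2 scale. The tables were made separately for each fraction, with a median effective length of the skipping form of 144 nt in whole cells and 73 nt in the cytoplasm, so levels were not compared across them.

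**Figure D3:**
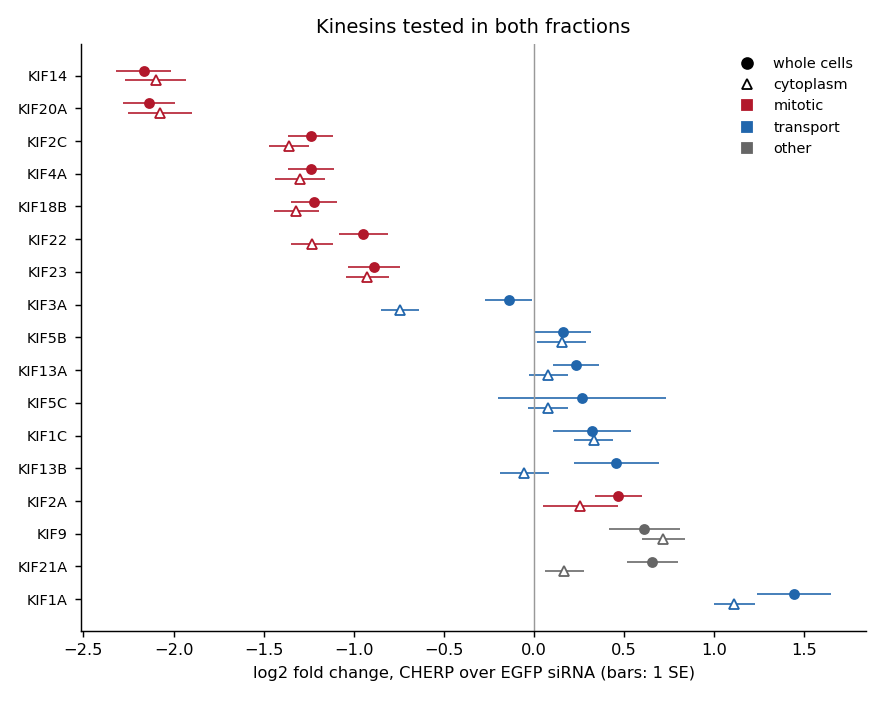
Log2 fold change of the CHERP siRNA over the EGFP siRNA libraries (horizontal axis, bars 1 SE) for the 17 kinesins tested in whole cells (filled circles) and in the cytoplasm (open triangles), coloured by list. The symbols of a gene lie farthest apart for KIF3A, KIF13B and KIF21A, whose whole cell symbol is to the right.

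The deposited expression table of the cytoplasm lists the authors' mean normalized count of each group for genes that passed the authors' own criterion, without values by replicate. It lists 23 of the 31 kinesins. The authors' mean was lower with the CHERP siRNA for 11 of 11 mitotic and 0 of 8 transport kinesins among these 23, and for 41.8% of all 6757 genes listed. KIF11 and KIF18A, which had no abundance in the cytoplasmic event tables, had authors' means of 1002 and 475.9 with the EGFP siRNA and 459.3 and 176.6 with the CHERP siRNA. KIF20B had 395.2 and 146.3. The kinesin-2 subunit KIF3B, which binds KIF3A and had no splicing event, had 4011 and 1994, the only gene of the transport list with a lower mean. KIF3A itself was not listed. The columns of that table do not name the siRNA. They were assigned by matching the number of genes with the higher mean in each column to the number given as increased in the study, so these directions rest on that match and not on a label.

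Splicing of the kinesins was examined next in the 5 classes of event that rMATS separates. The whole cell tables held 205 skipped exon events of kinesins, 35 pairs of mutually exclusive exons, 4 alternative 5′ splice sites, 9 alternative 3′ splice sites and 4 retained introns. Of the skipped exon events 2 passed a quasi-binomial test at an adjusted p under 0.05, both in transport kinesins, against 0.663% of the 63977 events of all genes. None of the 104 mitotic events passed. At an unadjusted p under 0.05 there were 10 of 59 transport and 9 of 104 mitotic events, and 12.3% of all events. None of the kinesin events of the other classes passed by the quasi-binomial test, against 0.496% of mutually exclusive pairs, 0.0918% of alternative 5′ and 0.366% of alternative 3′ splice sites and 0.35% of retained introns of all genes. An unadjusted p under 0.05 was found for 1 mutually exclusive pair (KIF21A, against 9.73% of all) and 1 alternative 3′ splice site (KIF22, against 9.01%), for 0 alternative 5′ splice sites (against 11.1%) and for 0 retained introns (against 12.2%). By limma on log2 odds, the counts at an unadjusted p under 0.05 were 13 of 205 skipped exons (against 8.2% of all events), 4 of 35 mutually exclusive pairs (9.55%), 0 of 4 alternative 5′ splice sites (8.08%), 0 of 9 alternative 3′ splice sites (7.4%) and 0 of 4 retained introns (9.09%). Events of a gene share reads and are not independent of one another.

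The 9-nt exon of KIF3A shown above was mostly skipped in control cells and mostly included after CHERP depletion. Its inclusion level was 0.0788 and 0.147 with the EGFP siRNA and 0.699 and 0.758 with the CHERP siRNA in whole cells (difference 0.616, quasi-binomial adjusted p = 0.00174). Behind these lay 7 and 11 inclusion reads to 77 and 60 skipping reads in the controls, and 69 and 70 to 28 and 21 after CHERP depletion. In the cytoplasm the inclusion level was 0.283 and 0.151 against 0.728 and 0.597, from 8 to 13 reads a library, and did not pass (difference 0.445, quasi-binomial unadjusted p = 0.0231, adjusted p = 0.565). The groups did not overlap in either fraction, and the share of all events with such separation was not counted. The whole cell abundance of the gene was 1.10-fold lower, a difference that did not pass.

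The 39-nt exon of KIF13A went the other way. Its inclusion level in whole cells was 0.786 and 0.797 with the EGFP siRNA and 0.247 and 0.390 with the CHERP siRNA (difference -0.473, quasi-binomial adjusted p = 0.0293), from 28 and 50 inclusion reads to 6 and 10 skipping reads in the controls and 15 and 26 to 36 and 32 after depletion. The cytoplasmic libraries had 0.610 and 0.739 against 0.372 and 0.477 (difference -0.250, quasi-binomial unadjusted p = 0.0765, adjusted p = 0.565). The order of the groups was the same in both fractions without overlap, again with no share of all events to set beside it. With any 1 library left out neither exon passed, nor did any skipped exon event of any gene, while the difference stayed between 0.581 and 0.650 for KIF3A and between -0.545 and -0.402 for KIF13A. Neither passed with each event's own dispersion at equal weight to the trend (adjusted p = 0.574 for both), nor by limma on log2 odds, fits in which 0 skipped exon events of any gene passed.

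**Figure D4:**
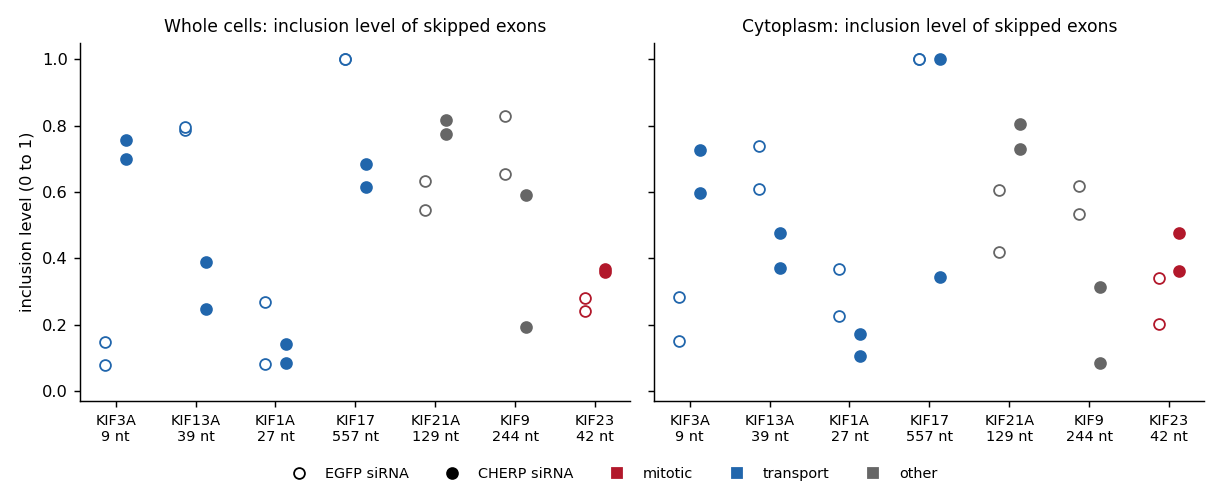
Inclusion level (0 to 1) in each library of 7 skipped exons of kinesins named in the text, labelled with gene and exon length, in whole cells and the cytoplasm. Open points are EGFP siRNA and filled points CHERP siRNA libraries, and in whole cells the groups are farthest apart for the 9-nt exon of KIF3A, which rises, and the 39-nt exon of KIF13A, which falls.

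Among kinesin exons averaging 20 or more reads in whole cells, others showed differences that did not pass. The 129-nt exon of KIF21A (chr12:39711875-39712003, minus strand, exon 29 of 38) had inclusion levels of 0.547 and 0.633 with the EGFP siRNA and 0.774 and 0.816 with the CHERP siRNA in whole cells (quasi-binomial adjusted p = 0.185), and 0.420 and 0.606 against 0.806 and 0.731 in the cytoplasm. It was higher after CHERP depletion in both fractions. Lack of overlap was a condition for naming it in each fraction and is not a result. The 557-nt exon of KIF17 (chr1:21013881-21014437, minus strand), which is not a multiple of 3, was at 1.00 in both control libraries and at 0.683 and 0.614 after depletion in whole cells, but only 2 and 4 skipping reads lie behind the lower values (quasi-binomial adjusted p = 0.317). In the cytoplasm the KIF17 groups overlapped, at 1.00 in both control libraries against 0.343 and 1.00. The 244-nt exon of KIF9 (chr3:47322442-47322685, minus strand), listed in 1 of 8 coding transcripts, had 0.654 and 0.828 against 0.591 and 0.194 (adjusted p = 0.348), so that 1 CHERP siRNA library made most of the difference. In the cytoplasm the KIF9 exon had 0.535 and 0.617 against 0.0843 and 0.315.

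Among the mitotic kinesins the 42-nt exon of KIF23 had the clearest shift. Its inclusion level was 0.281 and 0.243 with the EGFP siRNA and 0.360 and 0.369 with the CHERP siRNA in whole cells, from 285 to 492 reads a library (difference 0.103, quasi-binomial unadjusted p = 0.00170, adjusted p = 0.114). In the cytoplasm it was 0.203 and 0.340 against 0.476 and 0.361. It passed only with the dispersion taken from the trend alone (adjusted p = 0.0163), a setting chosen after the data were seen. The event of KIF2A with alternative 5′ splice sites, whose longer exon form spans 123 nt (chr5:61648415-61648537, plus strand), had inclusion levels of the longer form of 0.640 and 0.824 against 0.835 and 0.942 in the cytoplasm and overlapped in whole cells, at 0.540 and 0.426 against 0.536 and 0.541.

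In the cytoplasm, 96 skipped exon events, 12 mutually exclusive pairs, 2 alternative 5′ and 8 alternative 3′ splice sites and 2 retained introns of kinesins were tested, and none passed by the quasi-binomial test. Of all genes, 0.0188% of 31924 skipped exon events and 0.472% of retained introns passed there, and 0% of the other 3 classes. An unadjusted p under 0.05 was found for 6 kinesin skipped exons (against 5.36% of all events), 1 mutually exclusive pair (6.62%), 0 alternative 5′ splice sites (4.23%), 1 alternative 3′ splice site (4%) and 0 retained introns (11.6%). By limma on log2 odds, an unadjusted p under 0.05 was found for 12 of 96 skipped exons (against 8.22% of all events), 5 of 12 mutually exclusive pairs (9.11%), 0 of 2 alternative 5′ splice sites (7.71%), 1 of 8 alternative 3′ splice sites (7.75%) and 0 of 2 retained introns (10.2%), and no kinesin event passed the adjustment. The 27-nt exon of KIF1A had 0.226 and 0.369 with the EGFP siRNA and 0.171 and 0.105 with the CHERP siRNA (quasi-binomial unadjusted p = 0.0356), while in whole cells it overlapped, at 0.268 and 0.0814 against 0.143 and 0.0845. A mutually exclusive pair of KIF21A that shares its reads with the 129-nt exon had 1.00 in both control libraries against 0.927 and 0.847, and 0.970 and 0.916 against 0.972 and 0.958 in whole cells. No kinesin event differed in its CHERP siRNA effect between the fractions by a quasi-binomial Wald test on the ln odds with 0.5 reads added. Of the events of all genes shared by the fractions, 0.00837% of 23893 skipped exons, 0.103% of mutually exclusive pairs, 0.0487% of alternative 5′ and 0.0634% of alternative 3′ splice sites and 0% of retained introns did. Of the kinesin events shared by the fractions, an unadjusted p under 0.05 was found for 1 of 71 skipped exons (in KIF2C, against 2.02% of all), 0 of 7 mutually exclusive pairs (3.78%), 0 of 2 alternative 5′ splice sites (2.24%), 1 of 7 alternative 3′ splice sites (in KIF22, against 2.44%) and 0 of 2 retained introns (3%).

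The use of mitotic and transport kinesin exons in control cells is given as a description. Of skipped exon events averaging 20 or more reads in whole cells, 85.3% of the 102 mitotic and 67.4% of the 43 transport events had a control inclusion level over 0.95, beside 71.1% of 50381 events of all genes. The median absolute difference between the siRNAs was 0.0098 for mitotic, 0.0293 for transport and 0.0127 for all events. A difference over 0.1 was found in 1 of 102 mitotic and 5 of 43 transport events, and in 7.67% of all. These shares describe the events, and their difference between the lists was not tested.

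Genes that work with each class were counted in the same way. The motors KIFC1 and CENPE were counted among the spindle partners, as their symbols are not KIF followed by a digit. Of 16 spindle and midzone partners of the mitotic motors, 13 fell in whole cells (against 13.7% of all genes tested) and 13 of 13 tested fell in the cytoplasm (against 19.9%), with medians of -1.11 and -1.22 on the log2 scale. KIFC1, the minus-end motor of the spindle, had 13.2 and 13.6 against 4.58 and 4.91 in whole cells (limma adjusted p = 0.00813) and 8.94 and 9.29 against 3.33 and 2.66 in the cytoplasm (-1.61 ± 0.15, limma adjusted p = 0.00449). The kinetochore motor CENPE had 11.8 and 14.8 against 3.38 and 2.91 in whole cells (-2.07 ± 0.18, limma adjusted p = 0.00813). NUSAP1, which bundles spindle microtubules, had 53.0 and 57.9 against 19.7 and 18.6 (-1.53 ± 0.13, limma adjusted p = 0.00813). Of the 9 cargo and adaptor partners with an event in whole cells, 2 rose and 0 fell, against 13.3% of all genes tested that rose, namely KIFAP3, the third subunit of kinesin-2 (0.80 ± 0.16, limma adjusted p = 0.0265), and TRAK1, the mitochondrial adaptor of KIF5 motors (0.69 ± 0.12, limma adjusted p = 0.0217). In the cytoplasm 2 of 7 rose, against 19.1% of all genes tested. TRAK1 rose by 0.62 ± 0.11 and the light chain KLC1 by 1.00 ± 0.15 (limma adjusted p = 0.0151 and 0.0110). Whether the share of cells in mitosis moved with these values was not tested.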

How the data were processed

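Poly(A) RNA libraries of U2OS cells were made with a stranded kit. The authors mapped reads to hg19 with STAR (2.5.2b), counted genes with RSEM (1.2.25) and the GENCODE annotation, normalized them with EBSeq, and classed splicing events with rMATS, whose version and strand setting are not given in the sources used here. The deposited rMATS tables hold, per event, the reads of the inclusion and skipping form as 2 read counts joined in a cell, with no replicate number, beside effective lengths. The deposited expression table of the cytoplasm holds the authors' mean normalized signal of each group. Its columns and those of rMATS with fold changes, probabilities, p-values and inclusion differences were not used, nor were 20 columns of inclusion levels.

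Kinesins, lists and events to name were chosen with earlier results of these data known. Values by library are given for mitotic and transport kinesins that passed in either fraction, for events that passed, and for the 5 largest differences without overlap per fraction among events averaging 20 or more reads, a minimum that left out larger differences from fewer reads. Abundances, changes or levels of KIF2A, KIF3B, KIF3C, KIF5B, KIF5C, KIF9, KIF13A, KIF13B, KIF17, KIF21A, KIF24 and KIF27 are named outside this rule, after their values were seen. Abundance was scaled by median ratios, with a pseudocount of 0.01, a minimum mean of 20 reads and limma (3.58.1, R 4.3.3) with Benjamini-Hochberg adjustment over all genes, so fold changes are on the log2(value + pseudocount) scale and understate low genes. Inclusion levels were tested by a quasi-binomial likelihood ratio with dispersions moderated across events by limma, adjusted within event type. With 2 libraries a group the spread of a gene is poorly known and read counts cover counting error only. Scripts were tested on simulated data with the same spread in every library. The whole cell pairs differed in spread (chi-square per degree of freedom 26.27 for EGFP and 7.285 for CHERP siRNA), a setting that the simulation did not cover. Exon sequences were read from GRCh37, in which 98.9% of 460 introns beside kinesin exons began with GT and ended with AG. Promoters were matched by symbol for 27 of 31 kinesins.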

Additional observations from a re-analysis of the deposited data

How the results depend on the processing

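No paired analysis was possible because the deposited cells carry no replicate number. In whole cells, the count of kinesins called lower was 11 and went from 2 to 11 when 1 library was left out, with 2 without either CHERP siRNA library. The count called higher was 3, and became 1 with no read filter, 6 with a read minimum of 100, 6 with a trended and robust limma fit, and 0 to 3 with 1 library left out. The 2 splicing events called became 0 by limma on log2 odds, 0 with each event's own dispersion at equal weight, 5 with the dispersion from the trend alone (chosen after the data were seen) and 0 to 0 with 1 library left out. In the cytoplasm, the 2 kinesins called higher became 1 with the median over skipped exon events and 1 to 2 with 1 library left out, while the 8 called lower became 6 with a read minimum of 100, where KIF14 and KIF3A were not tested, and 8 or 9 in all other settings. No alternative reversed a called direction. The cause of the changes was not tested, except that leaving out a library leaves a group with 1, assumed to vary like the other group.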
